A study of Mus musculus with 4 samples.

Results

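The nuclear genes for subunits of respiratory chain complexes I, II and III were examined in the frontonasal prominence (FNP), the embryonic facial tissue that forms the nose and snout. Members were chosen by gene symbol alone. They were the Ndufa, Ndufb, Ndufc, Ndufs, Ndufv and Ndufab genes with a number (complex I), Sdha to Sdhd (complex II), and Uqcrc1, Uqcrc2, Uqcrb, Uqcrq, Uqcrh, Uqcrfs1, Uqcr10, Uqcr11 and Cyc1 (complex III). This gave 48 of the 33708 genes in the table, 35 for complex I, 4 for complex II and 9 for complex III. The table covers the 19 autosomes. The X-linked subunit genes Ndufa1 and Ndufb11 and the subunits encoded by mitochondrial DNA were not analysed here. Ndufa4 carries a complex I name, but its product is now counted with complex IV, and it was kept because its symbol matches.

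The RNA came from 4 mouse embryos of the FVB/NJ strain at E10.5, all with 29 somites. Of these, 2 were wild type for Smchd1 (WT), labelled as 1 female and 1 male. The other 2, both labelled male, carried the ENU-induced missense allele MommeD43 of Smchd1 on both chromosomes (MD43). Another record of the study gives the labelled WT male as female, and sex and genotype cannot be told apart fully in either case. SMCHD1 binds chromatin and helps to keep certain genes silent. Smchd1 itself had a log2 RPKM of 3.31 in WT and 3.30 in MD43, which does not check the labels, since a missense allele need not change the level of its transcript.

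Each gene has 1 value per genotype, the authors' mean of the log2 RPKM (reads per kilobase of transcript, scaled to library size) of the 2 libraries. Levels are given here as RPKM on the linear scale, which is the geometric mean of both libraries. Without values for single embryos there is no standard deviation and no test, so all differences are descriptions of these 2 pairs of libraries. Beside each log2 difference (MD43 minus WT) stands the smallest standard error that read counting allows (counting SE). It leaves out the variation between embryos, so the true error is larger. The values imply a depth of 16055882 reads for a WT library and 22328791 for an MD43 library.

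The respiratory chain passes electrons from NADH and succinate to oxygen across the inner mitochondrial membrane. Complex I (NADH dehydrogenase) oxidises NADH and reduces ubiquinone. Complex II (succinate dehydrogenase) does so from succinate and is also an enzyme of the TCA cycle. Complex III (cytochrome bc1) takes electrons from the reduced ubiquinone and hands them to cytochrome c. Complexes I and III pump protons, and complex II does not. Every cell that respires needs these subunits, and NRF1 and the ETS factor GABP are textbook regulators of many of their genes.

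Letter matches to the motifs of such regulators were counted in the promoters of the members, and 5 promoters are printed because they hold an NRF1 or ETS match close upstream of the start site and outside every annotated exon. Ndufb6, whose ETS letters lie farther off at bases -232 to -226, meets the same terms but is not printed. RefSeq promoters (GRCm38.p6, 250 bases before to 50 after the start site) were found for 39 of the 48 members, with 41 promoters. The NRF1 core GCATGCGC was found on either strand in 6 of the 41 (14.6%), compared with 2.71% of all 32851 promoters of the same length. The ETS core CCGGAAG was found in 8 (19.5%, against 8.86%), the YY1 core AAGATGG in 7 (17.1%, against 6.34%) and the GC box GGGCGG in 17 (41.5%, against 35.7%). Among promoters of genes with a log2 RPKM of at least 3 in both genotypes, the shares were 6.31% for NRF1, 21.9% for ETS, 8.69% for YY1 and 66.8% for the GC box. Beside these well expressed genes, the share of the members was higher for NRF1 and YY1 and lower for ETS and the GC box, with no test made. Letter matches say nothing about binding in this tissue. The lines below run 5′ to 3′ along the gene's strand, with NRF1 or ETS letters in capitals. They are Ndufa6 (chr15:82354323-82354442, minus strand), Ndufa11 (chr17:56717686-56717761, plus strand), Sdhd (chr9:50603850-50603909, minus strand), Uqcr11 (chr10:80406831-80406950, minus strand) and Uqcrh (chr4:116075072-116075191, minus strand).
Ndufa6, NRF1: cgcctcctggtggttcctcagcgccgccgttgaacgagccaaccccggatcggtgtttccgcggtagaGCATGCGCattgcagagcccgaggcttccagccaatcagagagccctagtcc
Ndufa11, NRF1 on both strands, overlapping: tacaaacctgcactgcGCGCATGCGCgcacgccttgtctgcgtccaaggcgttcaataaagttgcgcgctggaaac
Sdhd, ETS: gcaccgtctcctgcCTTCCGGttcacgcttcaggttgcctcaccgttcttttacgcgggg
Uqcr11, ETS: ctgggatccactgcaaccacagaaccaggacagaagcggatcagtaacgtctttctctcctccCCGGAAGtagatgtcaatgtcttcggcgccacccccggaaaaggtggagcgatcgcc
Uqcrh, ETS: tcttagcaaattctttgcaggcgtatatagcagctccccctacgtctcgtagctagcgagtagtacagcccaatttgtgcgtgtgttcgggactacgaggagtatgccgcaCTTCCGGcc

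The other NRF1 holders were Ndufa8, Sdhb and Uqcrc1, with a further match in Uqcr11 that spans the start site. The other ETS holders were Ndufb6, Ndufb7, Ndufs3, Ndufs8 and Sdhb. All 7 YY1 matches, in Ndufa3, Ndufa9, Ndufb8, Ndufc1, Ndufs4, Ndufs6 and Ndufs7, lay after the start site on the gene's own strand, between bases 22 and 44 counted from 0 at the start site. Of the 2082 promoters of all genes with this core, 20.5% had it after the start site on that strand. The letters contain ATG and can include the start codon of a gene with a short 5′ leader. Holders of these motifs went in both directions between the genotypes. Of the 5 genes printed, Uqcr11 differed by 0.26 and Ndufa11 by 0.16 on the log2 scale, Uqcrh by 0.02, Sdhd by 0.01 and Ndufa6 by -0.13.

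Of the 48 members, 47 had at least 10 reads in a genotype. The exception was Ndufs3 (ENSMUSG00000005510.9, chr2:90894634-90904827 of GRCm38), a core subunit of complex I that every respiring cell uses. Its value was the one the table gives a gene without a read, in both genotypes, so it is listed at 0 and has no fold. The next genes in genome order, C1qtnf4, Kbtbd4, Ptpmt1 and Rapsn, were also at 0. Celf1, an RNA-binding protein gene of broad expression, stood at 11.8 reads in WT and 11.3 in MD43. On either side of this stretch Mtch2 had 674 and 1023 reads and Psmc3 had 4118 and 6501. Uqcrc1 (chr9:108936633-108949623), a large core protein of complex III, showed a similar setting. It had 15.9 reads in WT and 22.6 in MD43, or 0.24 RPKM in both genotypes, while the other 8 members of complex III ranged from 43.1 to 143.5 RPKM. Nckipsd, Celsr3, Slc26a6 and Tmem89, its neighbours on one side, were at 0 in both genotypes, and beyond them Prkar2a had 1891 and 2699 reads. Both genes are therefore low together with a block of neighbouring genes and to the same extent in WT and MD43. Their values cannot be read as low expression in the FNP, and the cause was not tested.

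**Figure D1:**
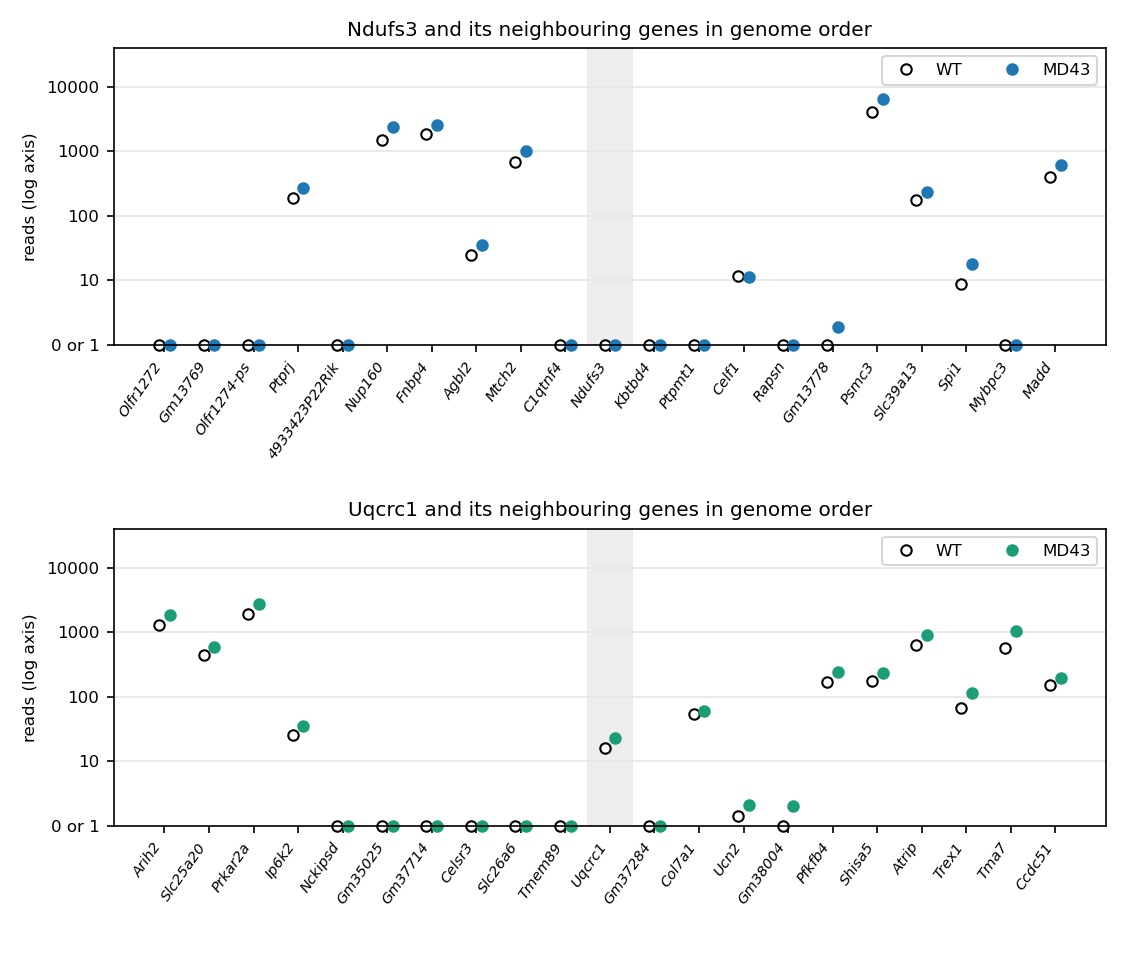
Reads per gene (log axis, geometric mean of 2 libraries) for Ndufs3 and Uqcrc1 (shaded) and the 10 genes on either side in genome order, with WT as open and MD43 as filled circles. Genes without reads, and genes of about 1 read, sit at the bottom; Ndufs3 lies in a run of such genes between Mtch2 and Psmc3, and Uqcrc1 at 15.9 and 22.6 reads lies beside another.

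The other 46 members were all well expressed, with between 230.4 and 5456 reads in a genotype. They ranged from 8.65 to 141.8 RPKM in WT and from 8.73 to 145.1 RPKM in MD43, a 16.4-fold and a 16.6-fold range. The median was 51.9 RPKM in WT and 51.7 in MD43. The highest were Uqcr10 (141.8 RPKM in WT and 143.3 in MD43), Uqcrh (141.3 and 143.5), Sdhd (136.5 and 137) and Ndufa4 (123 and 145.1). The lowest was Ndufb2, a small membrane-arm subunit of complex I, at 8.65 and 8.73 RPKM. Complex III had the highest median in WT (95.3 RPKM over 8 genes), followed by complex II (60.2 over 4) and complex I (40.7 over 34). Ndufa4 was below the other 3 in WT and above them in MD43. RPKM divides reads by exon length, so genes with similar reads can differ in RPKM. Ndufb2 had 781.8 reads in WT over 5628 exon bases. Ndufb10 had 765.7 reads over 1217 exon bases and stood at 39.2 RPKM in WT. How much of the range between genes comes from exon length was not tested.

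**Figure D2:**
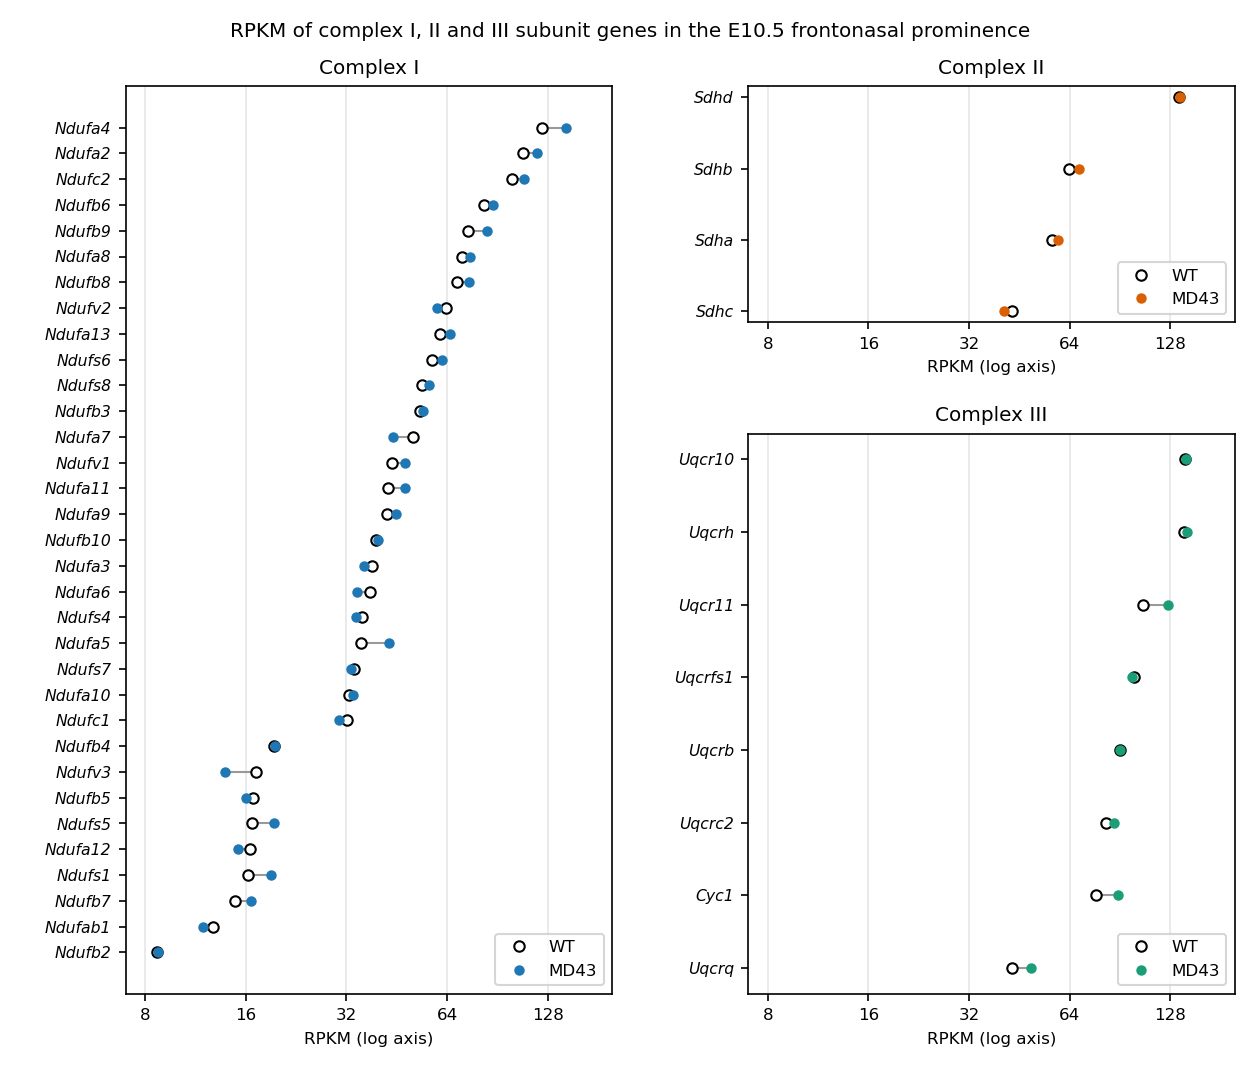
RPKM (log axis) of 45 of the 46 members other than Ndufs3 and Uqcrc1 (1 is not shown by name), one row per gene in order of the WT level, with WT as open circles and MD43 as filled circles, by complex. Each pair of circles lies close together while genes range from 8.65 RPKM (Ndufb2) to 145.1 RPKM (Ndufa4).

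No member reached a log2 difference of 0.32 in either direction, which stands for 25% more or 20% less RNA and is used here as the limit for calling a gene higher or lower by size alone. Of the 47 with at least 10 reads, 0 were past it above WT and 0 below WT, while of all 15377 genes with that many reads 10.3% were past it above WT and 13.9% below WT. The members are well expressed, and fold changes scatter less at high levels. Among the 5786 genes with a log2 RPKM of at least 3 in both genotypes, 3.82% were past the limit above WT and 2.35% below WT, so that few calls are to be found among 46 genes of this level. By any amount, 33 of the 47 were higher in MD43, compared with 51.2% of all genes. For the 46 members with a log2 RPKM of at least 3 the number was 32, compared with 60.9% of genes at that level. The median log2 difference of the 47 was 0.033, which is the value of Uqcrc1, and that of all genes was 0.006. For the 46 members with a log2 RPKM of at least 3 the median was 0.049, compared with 0.041 for genes at that level. Summed over the 48 members, the RPKM was 2683 in WT and 2817 in MD43. The sum was also higher in MD43 over all genes of the table (259769 in WT and 266603 in MD43). Over genes with a log2 RPKM of at least 3 it was 229213 and 236917. In bulk tissue, fewer cells of a type and less RNA per cell cannot be told apart.

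**Figure D3:**
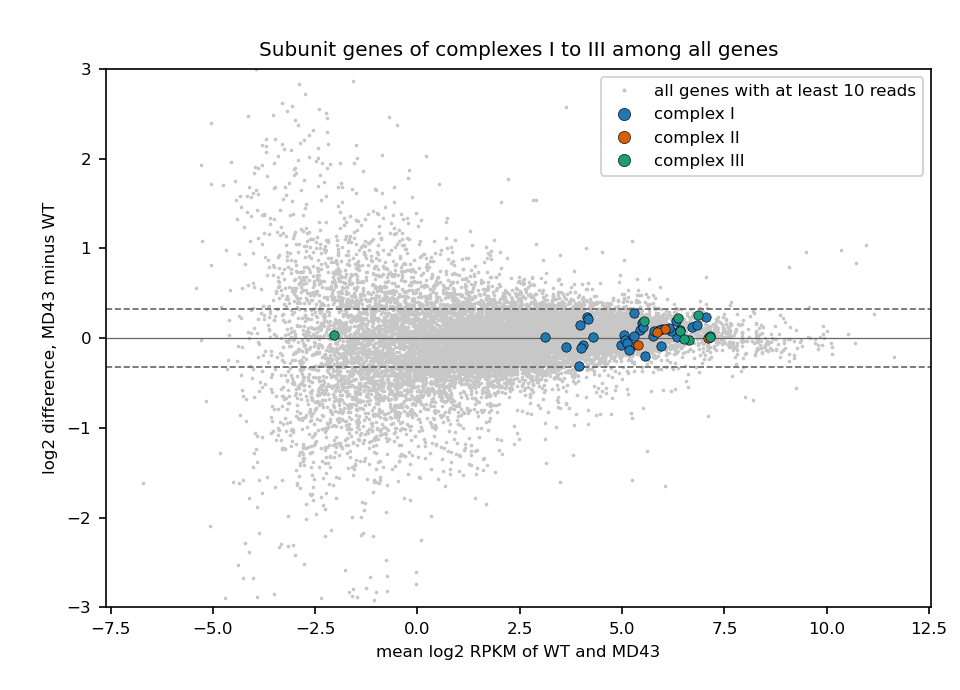
Log2 difference (MD43 minus WT) against the mean log2 RPKM of both genotypes, for the 15377 genes with at least 10 reads (grey) and the 47 members (coloured by complex). Dashed lines mark the limit of 0.32, and 25 genes beyond a log2 difference of 3 are not drawn; every member lies between the dashed lines, and Uqcrc1 is the single member at a low level.

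Complex I had the most members. Its 34 members with reads had a median log2 difference of 0.053, with 23 higher and 11 lower in MD43, and a range from -0.31 to 0.28. Their summed RPKM was 1600 in WT and 1683 in MD43. Without Ndufa4, whose product is counted with complex IV, the median of the other 33 was 0.032. That of genes with a log2 RPKM of at least 3 was 0.041. Ndufa5 (chr6:24518666-24528013), a subunit of the ubiquinone-binding module, was highest relative to WT, at 35.5 RPKM in WT and 43.0 in MD43 (log2 difference 0.28 ± 0.05 counting SE). Ndufa4 followed at 123 and 145.1 RPKM (0.24 ± 0.02), and Ndufs1 at 16.2 and 19.0 RPKM (0.23 ± 0.03). Ndufs1 encodes the largest core subunit, which carries iron-sulfur clusters next to the NADH site. At the other end stood Ndufv3 (chr17:31520115-31531331), an accessory subunit of the NADH-binding tip, at 17.2 RPKM in WT and 13.9 in MD43 (-0.31 ± 0.05). This is just inside the limit of 0.32, and a correction for exon length and GC content took it to -0.33, past that limit. Ndufa7 (50.6 and 44.2 RPKM, -0.20 ± 0.04) and Ndufa6 (37.6 and 34.3 RPKM, -0.13 ± 0.04) came next. The highest and lowest members differ from each other by more than their counting errors, but whether either would lie outside the range of single embryos cannot be told from 1 value per genotype.

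The nuclear-encoded catalytic core of complex I did not move as a block. Of its 7 genes, Ndufs3 was listed at 0. Besides Ndufs1, the flavoprotein gene Ndufv1 stood at 43.9 RPKM in WT and 47.9 in MD43 (0.13 ± 0.03), while its partner Ndufv2 stood at 63.7 and 59.7 (-0.09 ± 0.03). These 3 genes make up the core of the NADH-oxidising (N) module, and 2 lay above WT and 1 below. In the ubiquinone-reducing (Q) module, Ndufs7, which carries the last iron-sulfur cluster, was at 33.6 and 33.1 RPKM (-0.02 ± 0.04). Ndufs8, a ferredoxin-like subunit with iron-sulfur clusters, was at 53.8 and 56.6 RPKM (0.07 ± 0.04).

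By module, the 9 genes of the N module had a median difference of -0.055, with 4 higher and 5 lower. It holds both the lowest members of complex I, Ndufv3 and Ndufa7, and one of the highest, Ndufs1. The 4 Q module genes with reads had a median of 0.044, the 10 listed for the proximal membrane arm 0.088 and the 10 listed for the distal arm 0.024. Genes were placed in modules by list, and the placing of single genes such as Ndufa6 was not checked. In the list for the proximal arm, values ran from -0.13 for Ndufa6 to 0.22 ± 0.09 for Ndufs5. Ndufs5 had the fewest reads of these members (230.4 in WT and 371.9 in MD43), and 15.7% of its 75-base windows are shared with transcripts of other genes. In the distal arm, values ran from -0.09 ± 0.04 for Ndufab1, the mitochondrial acyl carrier protein, to 0.19 ± 0.04 for Ndufb9, with 8 of 10 above WT. No module had a gene past the limit in either direction.

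The 4 subunits of complex II had a median difference of 0.035, from -0.08 to 0.10, a range that covers fewer genes than in the other complexes. Their summed RPKM was 300.2 in WT and 305.5 in MD43. The catalytic subunits were Sdha, the flavoprotein that oxidises succinate, at 56.6 RPKM in WT and 59.2 in MD43 (0.07 ± 0.02), and Sdhb, the iron-sulfur subunit, at 64.0 and 68.5 (0.10 ± 0.03). Of the membrane anchors, Sdhd was at 136.5 and 137 RPKM (0.01 ± 0.03), and Sdhc at 43.0 and 40.8 (-0.08 ± 0.03). All 4 genes had at least 2245 reads in each genotype, and none shared a 75-base window with another gene. Their counting SE was therefore 0.03 or less.

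Complex III had 9 members with a median difference of 0.033, 7 higher and 2 lower in MD43, and a summed RPKM of 782.4 in WT and 828.2 in MD43. That median is the value of Uqcrc1, which is also counted among the 7. Without Uqcrc1, the median of the other 8 members was 0.050. The members of complex III fell into a group above WT and a group near it. Uqcr11 (chr10:80402997-80406830), a small accessory subunit, was at 106 RPKM in WT and 126.6 in MD43 (0.26 ± 0.04). Cyc1, the haem protein cytochrome c1 that passes electrons to cytochrome c, was at 76.7 and 89.4 RPKM (0.22 ± 0.03), and Uqcrq, another small subunit, at 43.1 and 49.2 (0.19 ± 0.04). The other catalytic and core subunits differed less. Uqcrfs1, the Rieske iron-sulfur protein, stood at 100 and 98.5 RPKM (-0.02 ± 0.03), and Uqcrc2, a core protein, at 82.5 and 87.0 (0.08 ± 0.02). Uqcrb, the other gene below WT, was at 90.8 and 90.5 RPKM (-0.01 ± 0.04), and Uqcr10 and Uqcrh each differed by 0.02. Uqcrc1, with 15.9 and 22.6 reads, had a difference of 0.03 ± 0.33 that carries no information.

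**Figure D4:**
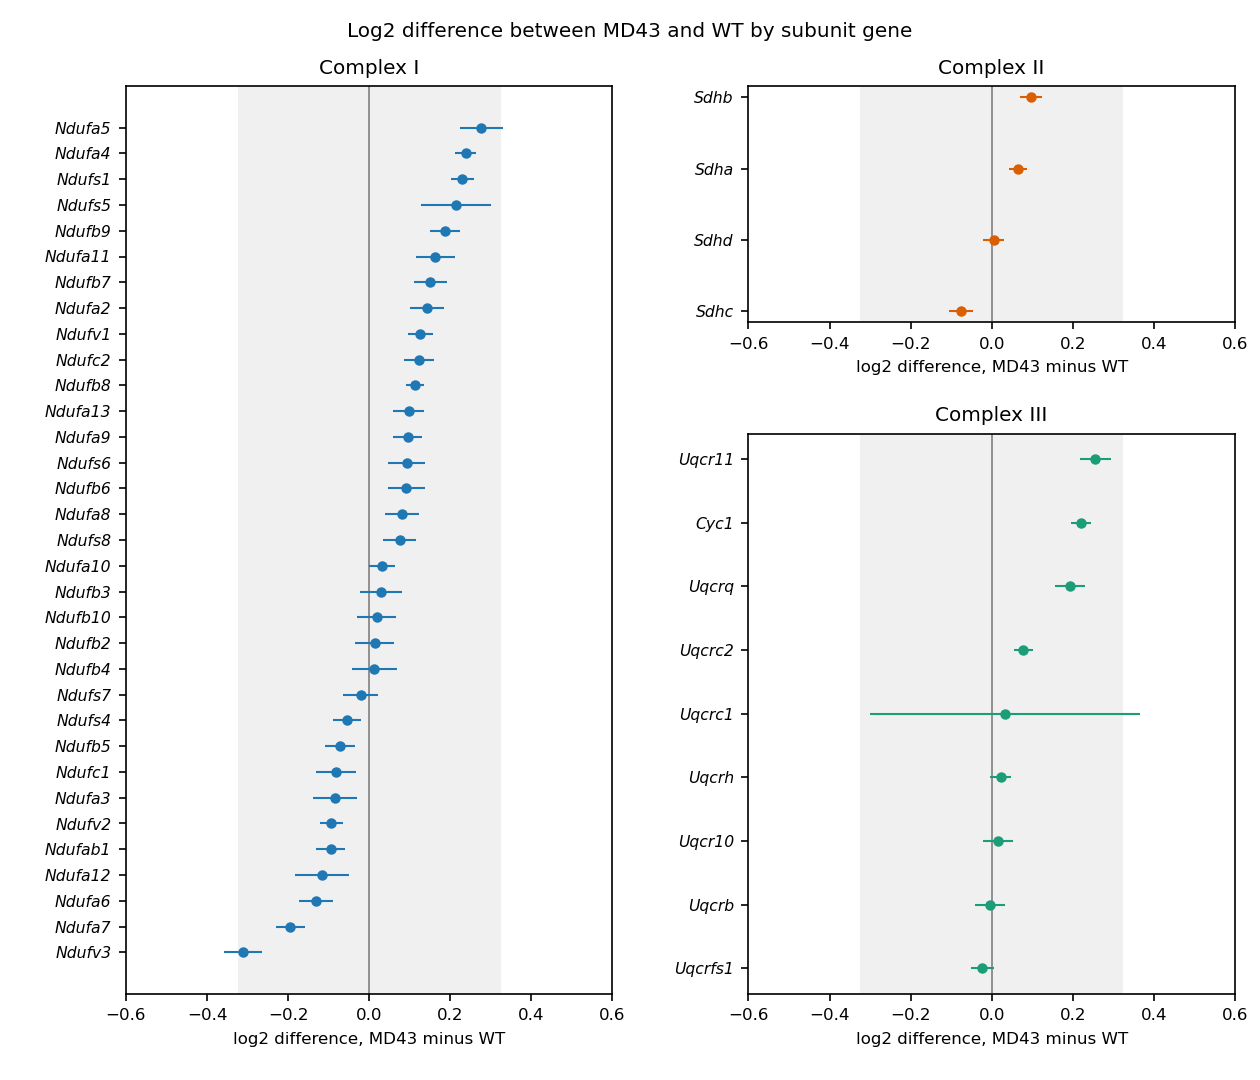
Log2 difference (MD43 minus WT) of 46 of the 47 members with at least 10 reads (1 is not shown by name), by complex, with bars of 1 counting SE, which leave out variation between embryos. The grey band marks log2 differences under 0.32, and all points drawn lie within it, from Ndufv3 at -0.31 to Ndufa5 at 0.28; the wide bar is Uqcrc1.

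The genes around the complexes in the same pathway were set beside them. Of the 25 assembly factors for complexes I to III, 17 were higher and 8 lower in MD43 (median 0.099). Past the limit of 0.32 were 0 of these factors, against 10.3% of all genes above WT and 13.9% below WT. The factors ran from Uqcc3, a complex III factor (-0.23 ± 0.07), and Sdhaf3 (-0.23 ± 0.09) to Foxred1 (0.26 ± 0.05) and Ndufaf3 (0.27 ± 0.09), which serve complex I. The 16 ATP synthase genes had a median of 0.060 and likewise 0 past the limit, from Atp5j (-0.12 ± 0.03) to Atp5g1 (0.22 ± 0.04). Of the 13 genes of complex IV (cytochrome c oxidase), 1 was past the limit above WT (7.69%, against 10.3% of all genes) and 3 below WT (23.1%, against 13.9%). Cox6c was higher (0.33 ± 0.03). The lower ones were Cox4i2 (2.28 in WT and 0.95 in MD43 on the log2 RPKM scale, from 61.5 and 33.9 reads, -1.34 ± 0.22), Cox6b2 (-0.45 ± 0.10) and Cox7a1 (-0.38 ± 0.36, from 15.6 and 16.6 reads). These 3 are tissue-specific or oxygen-linked alternative isoforms and were expressed far below the ubiquitous Cox4i1, which had a log2 RPKM of 7.65 in WT and 7.61 in MD43. Cycs, the mobile cytochrome c that accepts electrons from Cyc1, was at 3.73 and 4.14 on the log2 RPKM scale (0.41 ± 0.05). Of the Cycs windows, 23.94% are shared with transcripts of other genes, which the counting SE does not cover. Other genes on the routes into ubiquinone were Etfa (-0.15 ± 0.03), Etfb (-0.01 ± 0.04, with 39.61% of its windows shared), Etfdh (0.15 ± 0.05), Dhodh (0.14 ± 0.05) and Gpd2 (0.25 ± 0.04). Sqor, with 39.8 and 41.3 reads, had -0.42 ± 0.23, and Prodh was listed at 0.

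**Figure D5:**
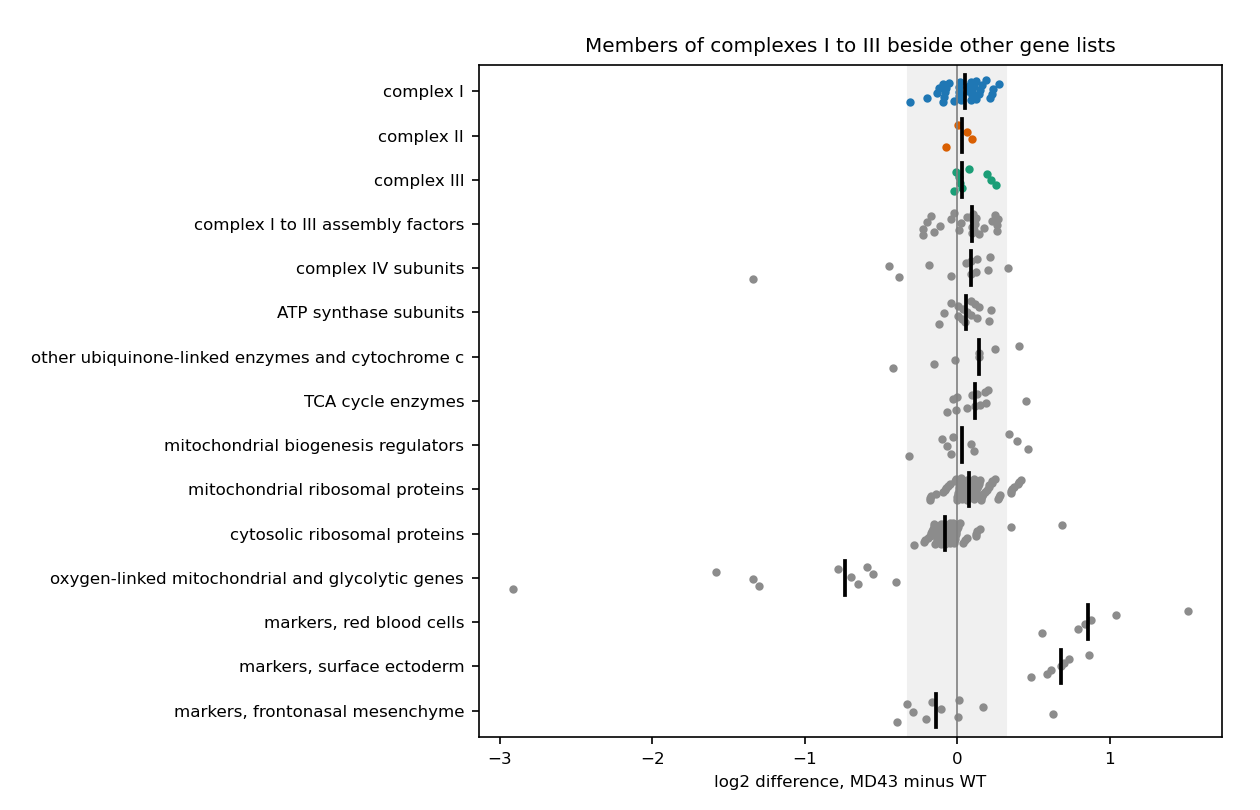
Log2 difference (MD43 minus WT) of each gene with at least 10 reads (points) and the median (black bar) for complexes I to III and for other gene lists, with a grey band for differences under 0.32. Complexes I to III, the assembly factors and the ATP synthase lie within the band, while the oxygen-linked genes lie below it and the red blood cell and surface ectoderm markers above it.

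Markers of other cell types in the tissue differed in level between the genotypes. All 6 red blood cell markers with a value were higher in MD43 (median 0.859, summed RPKM 3059 in WT and 5817 in MD43), as were all 7 surface ectoderm markers (median 0.683, 116.3 and 183.8). The 10 frontonasal mesenchyme markers had a median of -0.136 (summed RPKM 173.6 and 170.3), the 6 of neuroepithelium -0.181 (220.9 and 213.2), the 3 of neurons -0.052 (90.2 and 89.8) and the 4 of endothelium -0.090 (6.83 and 6.35). The X-linked markers Alas2 and Dcx were not analysed here. The muscle and heart markers Myh6, Myl7, Tnnt2 and Actc1 were under 10 reads in both genotypes. All 10 mesenchyme markers had at least 454.6 reads in each genotype, with 4 higher and 6 lower in MD43. The sample labels name the tissue as FNP. The part of cell makeup in the differences of the members was not tested.

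Shared sequence touches some members. Of the 47, 28 had no 75-base window in common with a transcript of another gene, and 9 had 10% or more, led by Ndufb6 (27.8%) and Ndufa13 (25.6%). Exons of 17 members overlap those of another gene, 6 of them over 10% or more of their bases, such as Ndufb6 with Smim27 (39%) and Ndufa13 with Tssk6 (30.0%) on the opposite strand. No source used here says whether the authors counted by strand, so such pairs may share reads. Of the members with large differences, Ndufv3, Ndufa5, Ndufa4, Ndufa7 and Cyc1 had neither a shared window nor an overlap. Uqcr11 shared 1.69% of its windows and Ndufs1 shared 3.24%. Exons of Ndufs1 overlap those of Ino80dos and Eef1b2 on the opposite strand over 498 bases (6.16%), and Eef1b2 had 15763 reads in WT and 20957 in MD43, compared with 2100 and 3427 for Ndufs1.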

How the data were processed

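The study sequenced poly(A) RNA of the FNP from 100 ng of total RNA per embryo. The authors trimmed the reads with Trim Galore (0.4.4), mapped them with HISAT2 (2.0.5) to GRCm38.p6 and quantified genes in SeqMonk. The deposited values are log2 RPKM, which the authors scaled to library size and transcript length and merged into 1 column for each genotype. The authors' own log2 fold change, mean and FDR (p-value corrected for multiple tests, from edgeR in SeqMonk) are also in the deposited table and were not used.

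The members and gene lists were chosen with earlier results of these data known. The lists of oxygen-linked and of cytosolic ribosomal genes were added after values of such genes had been seen. The rule for named genes took the nuclear core subunits, all of complex II, the 3 most positive and 3 most negative members of each complex with at least 100 reads in both genotypes, and 2 of each kind in other lists. Cox4i2, Cox7a1, Cox4i1, Sqor, Ndufa4l2 and other genes named outside it were chosen after their values were seen. A further core gene that the rule takes is not reported here.

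Rows were joined to GENCODE M21 (33101 of 33708). Genes without reads share 1 constant once exon length is removed, where 0.9 stands for an empty library. Squaring each value relative to it gave the product of the reads of both libraries, and 99.91% of products under 1000 in MD43 and 99.92% in WT were whole by this scheme. The recovery was tested on simulated data. Reads of a genotype are the geometric mean of both libraries, and the counting SE follows from it, covering counting error alone. The filter was 10 reads in either genotype. A member was called at a log2 difference of 0.32, with no test, because there is 1 value per genotype. Python 3.11.15 with pandas 2.3.3 and NumPy 2.4.6 was used. Alternatives covered pseudocounts, centring, filters, a correction for exon length and GC, other folds and members without shared sequence.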

Additional observations from a re-analysis of the deposited data

How the results depend on the processing

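The medians of the 3 complexes were recomputed under 25 alternatives in all. Each kept its sign and moved by less than 2 times the median counting SE of its members. In each complex that limit is wider than the median itself, so a fall to 0 would also have stayed within it. For complex II, no filter, at least 50 reads and under 10% shared windows left the same 4 genes and could not move the median. Complex I ranged from 0.011 (exon length and GC correction) to 0.073 (log2 ratio of summed RPKM), complex II from 0.021 to 0.035 and complex III from 0.022 to 0.082. These ranges reach nearly to 0, and medians of this size lie close to the median of all genes. The number of members past the fold was 0 in both directions with centring. It was also 0 with pseudocounts of 0.1 and 1 RPKM, with at least 50 reads, at 1.5-fold and at a log2 RPKM of at least 3. These last settings can only shrink differences, drop members or raise the limit, so they could not add a call to a count of 0. With the exon length and GC correction, 1 member, Ndufv3, was past the limit below WT (-0.33). With a limit of 1.1-fold, 11 members were higher and 2 lower, where 26.9% of all genes were higher and 27.7% lower, and 25% and 11.6% of genes with a log2 RPKM of at least 3. The alternatives without Ndufa4, without members of 10% or more shared windows, with the level limit, and of the oxygen-linked list with 10 reads in both genotypes (median -0.693) were chosen after seeing the data. Leaving out each replicate was not run, since the table has 1 value per genotype. No paired analysis was possible because single embryos have no values of their own. The variation between embryos is not known.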

Other observations

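A list of genes known to respond to oxygen lay below WT. It was written after glycolytic genes had been seen to differ, so its direction is no independent evidence. All 10 of its genes in the table were below WT by a log2 difference of 0.32 or more, compared with 13.9% of all genes. Among genes with a log2 RPKM of at least 3 the share was 2.35%. The median of the 10 was -0.738. The 9 with at least 10 reads in both genotypes had a median of -0.693. Ndufa4l2, a paralog of Ndufa4 known to be induced in low oxygen, had 23.0 reads in WT and 4.24 in the more deeply sequenced MD43 (-2.92 ± 0.54 counting SE), so it passed the filter through WT alone. Ndufa4 itself lay 0.24 above WT. Bnip3, a receptor for the removal of mitochondria, was at 6.03 in WT and 4.45 in MD43 on the log2 RPKM scale (-1.58 ± 0.04). Of the Bnip3 windows, 34.42% are shared with transcripts of other genes, which the counting SE does not cover. Pdk1, the kinase that restrains entry of pyruvate into the TCA cycle, was at 4.45 and 3.15 (-1.30 ± 0.03), and Ldha, lactate dehydrogenase, at 9.53 and 8.98 (-0.55 ± 0.01). Higd1a was the smallest, at -0.40 ± 0.04, with 21.95% of its windows shared, compared with 0% for Pdk1 and 2.69% for Ldha. Red blood cell markers lay above WT by a median of 0.859 in the same libraries, and the part of cell makeup in these differences was not tested.

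Mitochondrial and cytosolic ribosomal protein genes had medians of opposite sign. Of 74 mitochondrial ribosomal genes with reads, 63 were higher and 11 lower in MD43 (median 0.081), 7 were past the limit above WT and 0 below WT, with Mrpl12 at 0.42 ± 0.02 and Mrps26 at 0.40 ± 0.05 at the top and Mrps16 at -0.18 ± 0.06 at the bottom. The share past the limit above WT was 9.46%, close to the 10.3% of all genes and above the 3.82% of genes with a log2 RPKM of at least 3, and 85.1% were higher by any amount, where 60.9% of genes at that level were. Of 69 cytosolic ribosomal genes, 57 were lower and 12 higher (median -0.077). Of these, 2 were past the limit, Rpl29 and Rpl41, and both were higher. The share was 2.9%, against 10.3% of all genes above WT and 3.82% of genes with a log2 RPKM of at least 3. The 13 TCA cycle genes had a median of 0.116. Ogdh at 0.45 ± 0.03 was the 1 gene past the limit. This was 7.69%, against 10.3% of all genes above WT and 3.82% of genes with a log2 RPKM of at least 3. Among 10 regulators of mitochondrial biogenesis, 5 were higher and 5 lower in MD43 (median 0.030). Nrf1 differed by 0.11 ± 0.04, Gabpa by -0.04 ± 0.03 and Tfam by -0.03 ± 0.03. The 3 past the limit above WT made up 30% of these regulators, against 10.3% of all genes. They were Polrmt, the mitochondrial RNA polymerase (0.47 ± 0.06), Pprc1 (0.39 ± 0.03) and Ppargc1b (0.34 ± 0.28, from 20.4 and 35.9 reads). Ppargc1a lay just inside the limit below WT (-0.32 ± 0.19, from 53.0 reads in WT and 59.1 in MD43).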
